A study of Mus musculus with 8 samples.

Results

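The genes described are 10 mouse genes for acyl-CoA thioesterases and acyl-CoA:amino acid N-acyltransferases, taken by symbol from a liver RNA-seq table of 20894 genes. They are Acot1 and Acot12 in the cytosol, Acot2 and Acot13 at the mitochondria, and Acot3, Acot4, Acot8, Acnat1, Acnat2 and Baat in the peroxisome, with BAAT also found in the cytosol. All 10 were in the table, and 9 held enough counts to be tested. Wild-type mice received AAV8-TBG-POLR2G or, as controls, AAV8-TBG-GFP, were fasted by day, and had their liver poly-A RNA sequenced in strand-specific libraries. AAV8 is a viral vector that reaches the liver, and TBG is the thyroxine-binding globulin promoter, which is active in hepatocytes. POLR2G is a subunit of RNA polymerase II. The POLR2G group has 4 libraries and the GFP control group 4, and both carried a vector and were fasted, so neither an uninjected nor a fed liver is among them. A POLR2G library whose number is in no label is called the unnumbered library here. The labels leave strain, sex, age, vector dose and time after injection unstated. Nor do they tie each library to an animal of its own, and a p-value here covers the spread among the libraries, which may be technical.

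Acyl-CoA thioesterases cut an activated fatty acid into the free acid and coenzyme A, and each compartment of the cell has its own enzymes for this. The type I family (Acot1 to Acot6 in the mouse) arose by gene duplication, and in mouse liver several of its genes are known to rise with fasting and with activation of the nuclear receptor PPARA. Acot12, Acot13 and Acot8 belong to the other family, which has a hotdog fold. BAAT joins bile acids to taurine or glycine before their secretion, and mouse ACNAT1, a related peroxisomal enzyme, joins fatty acids to taurine.

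Counts summed to 16362899 to 22165491 per POLR2G library and to 14159056 to 18865284 per GFP control library. Levels are given as CPM, counts scaled to library size and composition, and means as ± SD with n = 4 libraries in each group. Polr2g itself had 38649 to 54553 counts in POLR2G libraries and 213 to 258 in GFP control libraries, in keeping with the labels of all 8. Hepatocyte markers led by Alb summed to 116460 to 131490 CPM in POLR2G libraries and 123120 to 146820 CPM in GFP control libraries. Summed markers of Kupffer cells (258 to 498 against 235 to 362 CPM), endothelium (182 to 213 against 145 to 219), stellate cells (147 to 220 against 124 to 245) and cholangiocytes (21.1 to 27.7 against 18.7 to 25.3) overlapped between the POLR2G and GFP control groups. Lymphocyte and neutrophil markers summed to 1.64 to 2.99 CPM in POLR2G and 1.87 to 2.98 CPM in GFP control libraries with Ly6g at 0, and kidney markers to 0 to 0.176 CPM in POLR2G and 0 to 0.116 CPM in GFP control libraries. By gene, 9 of 10 hepatocyte markers were lower (Ttr with every POLR2G library below every GFP control library, log2 fold change -0.19) and 8 of 9 tested Kupffer and macrophage markers higher, none past the adjusted threshold in edgeR. Marco, a macrophage receptor, had 60.6 CPM in the unnumbered POLR2G library and 3.92 to 9.97 CPM in the other POLR2G libraries. In GFP control libraries Marco had 2.90 to 10.5 CPM. Lyve1, a sinusoidal endothelial receptor, had 7.00 ± 0.661 CPM in POLR2G and 12.6 ± 5.82 CPM in GFP control livers without overlap. Its highest value was 21.1 CPM in GFP control replicate 3. Of 7 tested endothelial markers, 2 were lower, Lyve1 among them, and 5 higher, with a median log2 fold change of 0.11. The part of these markers in the results below was not tested. In bulk liver, fewer cells of a type and less RNA per cell cannot be told apart.

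Location in the cell is read in part from the end of the protein, because the C-terminal tripeptide of many peroxisomal enzymes is their import signal. The last 30 coding bases of 9 of the genes are shown to set the compartments side by side, without the stop codon, from GENCODE M21 transcripts on GRCm38, 5′ to 3′, with the last 3 codons in capitals.
Acot1 (chr12:84017347-84017376, plus strand): agtgagtgtttgcatgtgtctCCTAAAATA
Acot12 (chr13:91784748-91784777, plus strand): gctactcctgatggacttaaaAGTGTGTTA
Acot2 (chr12:83993048-83993077, plus strand): ttcttccacaaacagttgggtAGCAAGAGT
Acot3 (chr12:84058994-84059023, plus strand): ggcaaaaagaagacaatcccaGCAAAACTG
Acot4 (chr12:84043764-84043793, plus strand): agtacccacagcagagcctccTGTAGACTG
Acot8 (chr2:164792895-164792924, minus strand): ttgaagcctcaggtgtcagagAGTAAGCTA
Acnat1 (chr4:49447332-49447361, minus strand): aaacacctccttcaatccggaAGCAAACTC
Acnat2 (chr4:49380117-49380146, minus strand): aaacacctccttcaatccggaAGCAAACTC
Baat (chr4:49489823-49489852, minus strand): catctccttccagatttgagcAGTCAGCTC
In all 6 peroxisomal genes the last codon begins with CT, and in Acot1, Acot12 and Acot2 it does not. The last codon of Acot12, TTA, codes for leucine, as codons that begin with CT do. The last amino acid alone therefore does not set the peroxisomal genes apart from Acot12. Acnat1 and Acnat2 are identical over these 30 bases.

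Several members are near-identical copies of each other, and reads that fit more than 1 copy have to be shared out among them. Acot1 and Acot2 coding sequences were 95.55% identical over 1236 aligned bases, with 1 identical run of 273 bases. Acnat1 and Acnat2 were 96.15% identical over 1248 aligned bases, with an identical run of 200 bases. Acot1 shared 84.01% with Acot3 and 76.62% with Acot4, and Acnat2 shared 63.16% with Baat. The 60-base coding windows with the most differences are shown for each pair, because reads from them can tell the copies apart. Capitals mark the bases that differ, 13 in the Acot2 and Acot1 window and 12 in the Acnat2 and Acnat1 window (GRCm38).
Acot2 (chr12:83992664-83992723, plus strand): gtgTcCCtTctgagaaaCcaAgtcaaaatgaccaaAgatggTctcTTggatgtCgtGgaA
Acot1 (chr12:84016942-84017001, plus strand): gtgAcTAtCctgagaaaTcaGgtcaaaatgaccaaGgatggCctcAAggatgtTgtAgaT
Acnat2 (chr4:49380496-49380555, minus strand): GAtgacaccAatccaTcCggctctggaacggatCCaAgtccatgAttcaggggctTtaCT
Acnat1 (chr4:49447699-49447758, minus strand): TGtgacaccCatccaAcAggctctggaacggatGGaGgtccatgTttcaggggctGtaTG
Of the 31-base words in the longest coding transcript, 40.1% of those of Acot1, 38% of Acot2, 25.6% of Acot3, 19.6% of Acot4, 43.6% of Acnat1 and 39.5% of Acnat2 also occurred in a transcript of another gene on either strand. The gene sharing most words was Gm49366 for Acot3 (11.7%) and 4732463B04Rik for Acot4 (12.1%), and for the other 4 it was the partner in the pair. The share of words found elsewhere was 3.93% in Acot12 and 0 in Acot13 and Baat. Values of the first 6 genes are therefore uncertain as to how reads were divided among the copies, and their sums are given further on.

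Livers given POLR2G held less Acot1, Acot3 and Acnat2 mRNA in every library than any liver given GFP, while Acot12, Acot13, Acnat1 and Baat lay at nearly the same level in both groups. Acot3 was 4.85-fold lower (log2 fold change -2.28), Acot1 was 2.17-fold lower, and Acnat2 had a log2 fold change of -1.59. Acot2 and Acot4 were 1.71-fold and 1.68-fold lower with overlapping groups. No member passed an adjusted p of 0.05 in the quasi-likelihood test of edgeR, which called 4 of 10390 genes (0.0385%). At an unadjusted p under 0.05, 5 of the 9 tested members were lower in POLR2G and 0 higher, where 4.10% of all tested genes were lower at that p. Of the 9, 8 had a negative log2 fold change, a sign that 50.7% of all genes had, and 3 were at -1 or less, as were 1.52% of all genes. DESeq2 called 4 members, all lower (Acot1, Acot3, Acot4 and Acnat2), where it called 0.597% of all genes lower, and limma-voom called 0 members and 0.0289% of all genes. Every POLR2G library lay below every GFP control library for 3 members, which was so for 2.68% of tested genes, and above it for 0 members, against 2.83% of tested genes. The median log2 fold change was -0.75 over the 9 tested members and -0.0031 over all tested genes. The members were picked with earlier results of these data known, so these counts describe the genes and do not test them as a group.

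**Figure D1:**
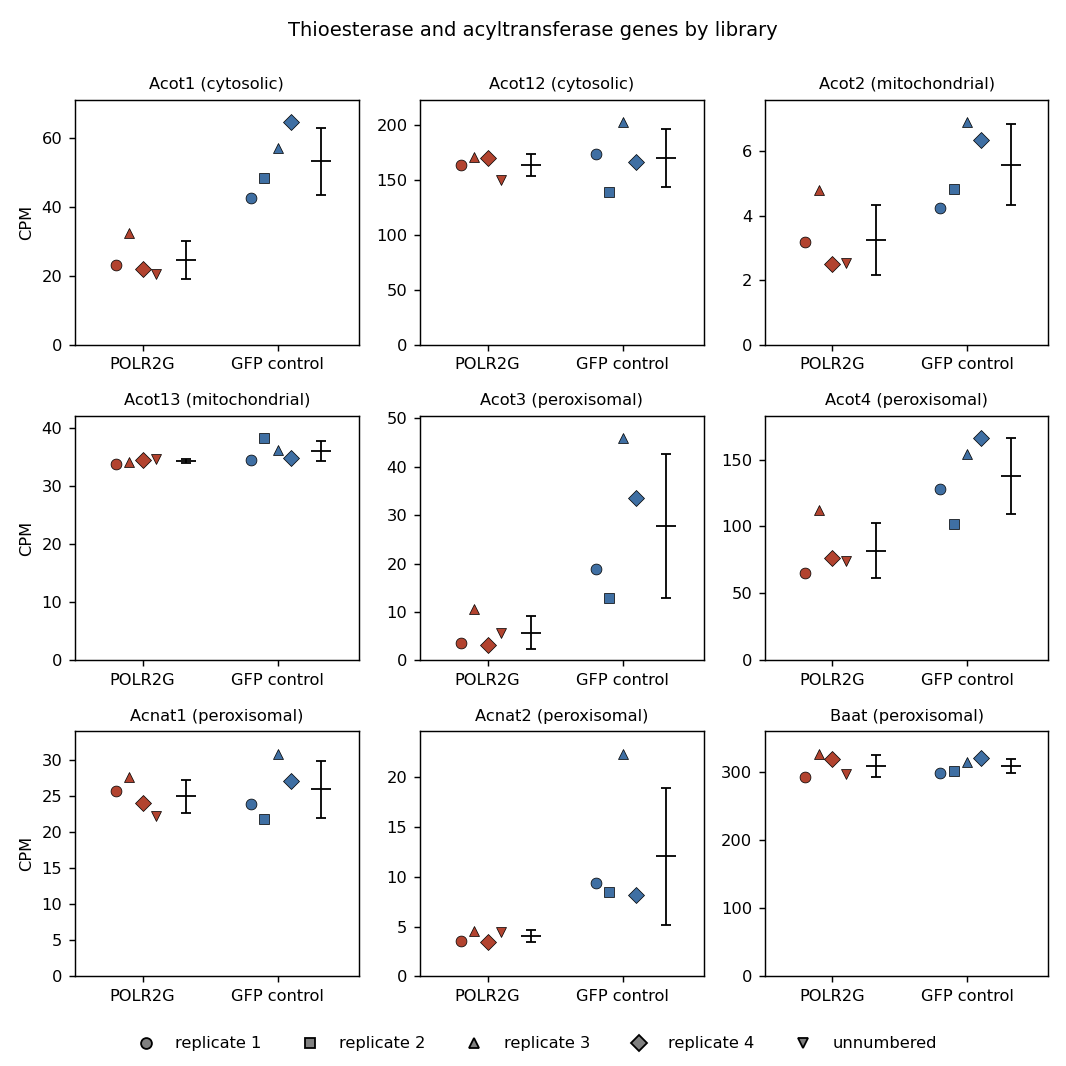
CPM of the 9 tested members in each library, POLR2G left (red) and GFP control right (blue), with the marker shape giving the replicate number and the bar the mean ± SD of 4 libraries. Acot1, Acot3 and Acnat2 have every POLR2G library below every GFP control library, and Baat averages 309 CPM in both groups.

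Among the cytosolic enzymes, Acot1, the long-chain acyl-CoA thioesterase of the type I family, had 23.2, 32.6 and 22.0 CPM in POLR2G replicates 1, 3 and 4 and 20.6 CPM in the unnumbered POLR2G library, against 42.8, 48.5, 57.3 and 64.8 CPM in GFP control replicates 1 to 4. Values of the other genes follow the same order of libraries. The groups did not overlap, and the highest POLR2G library was replicate 3. Means were 24.6 ± 5.44 CPM in POLR2G and 53.3 ± 9.66 CPM in GFP control livers. The log2 fold change was -1.12 with an SE of 0.171 (95% interval -1.50 to -0.73), and the edgeR adjusted p was 0.103 (unadjusted 9.0e-05, rank 8 among 10390 genes). An exact two-sided permutation test over the 8 libraries gave p = 0.0286, the smallest that 4 against 4 allows. Leaving out POLR2G replicate 3 brought the edgeR adjusted p to 0.0463 with a log2 fold change of -1.28, and over all alternatives the adjusted p ran from 1.26e-06 with DESeq2 to 0.407. Acot1 lies at chr12:84009490-84018371 on the plus strand of GRCm38.

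Acot12, an acetyl-CoA hydrolase of the hotdog-fold family at chr13:91741512-91786148, had 164, 172, 171 and 150 CPM in POLR2G libraries and 174, 139, 203 and 167 CPM in GFP control libraries. The POLR2G libraries all fell inside the GFP control range. Its log2 fold change was -0.06 with a 95% interval of -0.30 to 0.19 and an edgeR adjusted p of 0.938, so a change of 2-fold in either direction lay outside the interval. The log2 fold changes of the 2 cytosolic genes, -1.12 and -0.06, had intervals that did not meet. Their summed level was 189 ± 13.9 CPM in POLR2G and 224 ± 30.4 CPM in GFP control livers, with overlap.

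At the mitochondria, Acot2, the matrix enzyme of the type I family and closest relative of Acot1, had few counts. It had 3.18, 4.80, 2.51 and 2.52 CPM in POLR2G libraries, against 4.24, 4.82, 6.90 and 6.34 CPM in GFP control libraries. POLR2G replicate 3 lay among the GFP control libraries, and the other 3 POLR2G libraries lay below all of them. On the log2 scale the fold change was -0.78 (SE 0.272, 95% interval -1.39 to -0.16) with an edgeR adjusted p of 0.479 and an unadjusted p of 0.0183. Acot2 lies at chr12:83987861-83993873.

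Acot13, a small hotdog-fold thioesterase that associates with mitochondria, at chr13:24817948-24831540, had 33.8, 34.1, 34.5 and 34.6 CPM in POLR2G libraries and 34.5, 38.2, 36.1 and 34.8 CPM in GFP control libraries. It was the steadiest member in POLR2G livers, with an SD of 0.374 around a mean of 34.2 CPM. Its log2 fold change was -0.07 (95% interval -0.21 to 0.07, edgeR adjusted p = 0.835). Acot13 made up most of the mitochondrial counts. The summed mitochondrial level was 37.5 ± 0.960 CPM in POLR2G and 41.5 ± 2.04 CPM in GFP control livers, with overlap.

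Among the peroxisomal thioesterases, Acot3, a long-chain type I enzyme at chr12:84052144-84060402, had the largest fold change of the members. It had 3.52, 10.5, 3.19 and 5.75 CPM in POLR2G libraries, against 18.8, 12.9, 46.0 and 33.5 CPM in GFP control libraries. The groups did not overlap, and POLR2G replicate 3 and GFP control replicate 2 came closest to each other. The difference on the log2 scale was -2.28 (SE 0.477, 95% interval -3.35 to -1.21) with an edgeR adjusted p of 0.203 (0.000147 with DESeq2 to 0.504 over the alternatives) and an exact permutation p of 0.0286. Within the POLR2G group the highest library had 3.30 times the level of the lowest, and within the GFP control group 3.55 times.

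Acot4, the type I enzyme that acts on dicarboxylyl-CoA esters such as succinyl-CoA, lies next to Acot3 in the genome. Its levels were 64.9, 112, 76.6 and 74.2 CPM in POLR2G libraries, against 128, 102, 154 and 166 CPM in GFP control libraries. POLR2G replicate 3 exceeded GFP control replicate 2, and no other pair crossed. Its log2 fold change was -0.75 (SE 0.194, 95% interval -1.18 to -0.31) with an edgeR adjusted p of 0.320 and an adjusted p over the alternatives from 0.0169 with DESeq2 to 0.653. It lies at chr12:84038379-84048601.

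Acot8, a broad peroxisomal thioesterase of the hotdog-fold family at chr2:164792765-164804882, held 12 counts in POLR2G replicate 1 and 0 in the other 7 libraries, and was not tested. A count of 0 allows up to 3 counts, which is 0.171 to 0.180 CPM in the 3 POLR2G libraries at 0 and 0.162 to 0.193 CPM in the GFP control libraries. The table also gave few counts to genes that most tissues express strongly, such as Actb with 0 to 12 counts in POLR2G and 0 to 29 in GFP control libraries, and Rpl3 with 0 in POLR2G and 0 to 3 in GFP control libraries. These examples were chosen after their values were seen. Actb, Rpl3 and Acot8 have 5, 3 and 2 annotated coding transcripts, and the level of Acot8 in these livers cannot be read from the table. The same caution applies to the absolute level of any member with several coding transcripts, which are all but Acot12, Acot2 and Acot13. Fold changes, shares and sums of those members may likewise describe only the transcripts that the table holds.

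The amino acid acyltransferases lie side by side on chromosome 4 and did not share a pattern. Acnat2, an acyl-CoA:amino acid N-acyltransferase at chr4:49379840-49408151, had 3.52, 4.57, 3.47 and 4.49 CPM in POLR2G libraries, against 9.33, 8.47, 22.4 and 8.13 CPM in GFP control libraries. The groups did not overlap, and GFP control replicate 3 stood far above the other control libraries. The log2 fold change was -1.59 (SE 0.340, 95% interval -2.35 to -0.82) with an edgeR adjusted p of 0.215 (0.00169 with DESeq2 to 0.536 over the alternatives) and an exact permutation p of 0.0286. Without GFP control replicate 3 the log2 fold change was -1.11.

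Acnat1 at chr4:49447105-49473912 had 25.8, 27.7, 24.2 and 22.3 CPM in POLR2G libraries and 24.0, 21.9, 30.9 and 27.2 CPM in GFP control libraries. Its POLR2G values sat inside the GFP control range, with a log2 fold change of -0.06 (95% interval -0.32 to 0.21, edgeR adjusted p = 0.943). Baat, the bile acid conjugating enzyme at chr4:49489422-49506557, had 293, 327, 319 and 297 CPM in POLR2G libraries and 298, 302, 315 and 320 CPM in GFP control libraries. Both groups averaged 309 CPM, with SDs of 16.3 in POLR2G and 10.3 in GFP control livers. The log2 fold change of Baat was 0.0012 (95% interval -0.14 to 0.14, edgeR adjusted p = 0.999), and its sign turned negative under 5 of 19 other settings, to -0.08 with scaling by library totals alone.

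**Figure D2:**
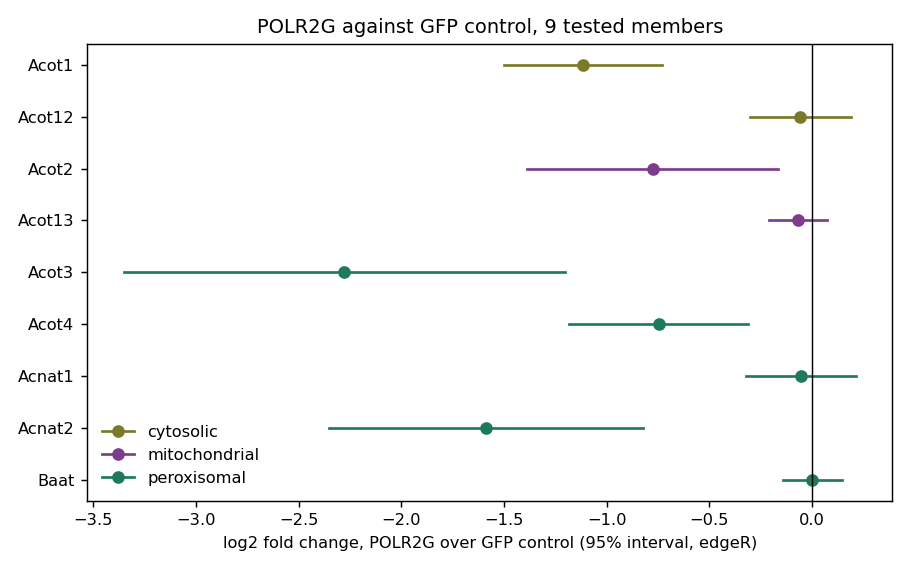
log2 fold change of POLR2G over GFP control livers for the 9 tested members, with 95% intervals from edgeR, coloured by location in the cell. The intervals of Acot1, Acot2, Acot3, Acot4 and Acnat2 lie below 0 before adjustment, and those of Acot12, Acot13, Acnat1 and Baat cover it.

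In each compartment there was a gene with an interval below 0 and a gene whose interval covered 0. The summed peroxisomal level was 426 ± 39.9 CPM in POLR2G and 512 ± 58.7 CPM in GFP control livers, with overlap. Baat alone gave 309 CPM of it in each group. Summed over all 10 genes, the level was 652 ± 52.5 CPM in POLR2G and 778 ± 88.1 CPM in GFP control livers, a log2 ratio of -0.25 with overlapping groups.

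Levels of the 9 tested members were compared per kilobase of the longest coding transcript, without Acot8. The table may hold only part of the transcripts of members with several, all but Acot12, Acot2 and Acot13. The order is therefore uncertain. In POLR2G livers, Baat was highest with 159 CPM per kb, followed by Acot12 with 53.6 and Acot13 with 47.5. Acnat1 came next in POLR2G livers with 16.7 CPM per kb, then Acot4 with 13.2 and Acot1 with 10.8, which did not differ beyond their spread. Acnat2 with 2.41 ± 0.358, Acot3 with 1.68 ± 0.988 and Acot2 with 1.48 ± 0.492 followed. Acot3 did not differ from Acnat2 or Acot2 beyond its spread. In GFP control livers the first 3 kept their order with 159, 55.8 and 49.8 CPM per kb, and Acot12 and Acot13 did not differ beyond their spread. There Acot1 with 23.5 CPM per kb, Acot4 with 22.2 and Acnat1 with 17.3 lay close together, followed by Acot3 with 8.11, Acnat2 with 7.26 and Acot2 with 2.54.

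The type I genes with lower values lie in 1 stretch of chromosome 12. Acot2, Acot1, Acot4, Acot3, Acot5 and Acot6 follow each other there on the plus strand over 123489 bases. The first 4 had log2 fold changes from -2.28 to -0.75. Acot6, the last gene of the row, had 6.85 ± 1.09 CPM in POLR2G and 6.92 ± 0.335 CPM in GFP control livers, a log2 fold change of -0.02 (SE 0.157), and Acot5 had 0 counts in every library. The chromosome 4 row, Acnat2, Acnat1 and Baat on the minus strand over 126718 bases, had the low value at 1 end.

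**Figure D3:**
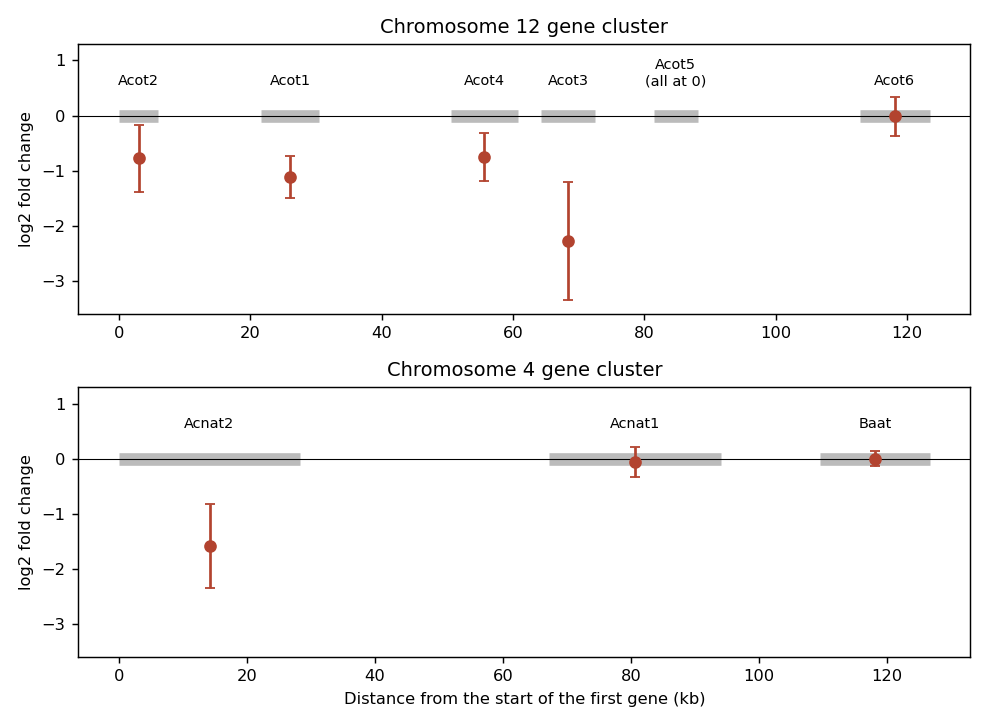
log2 fold change of POLR2G over GFP control livers (points, with 95% intervals from edgeR) drawn at the centre of each gene (grey bars) in the 2 gene rows, by distance in kb from the first gene. Acot2, Acot1, Acot4 and Acot3 lie below 0 and Acot6 at -0.02 in the upper row, and Acnat2 lies at -1.59 and Baat at 0.0012 in the lower row.

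Sums over near-identical genes do not depend on how reads were divided among those genes. Acot1 to Acot4 together had 94.9, 160, 104 and 103 CPM in POLR2G libraries, against 194, 168, 264 and 271 CPM in GFP control libraries, without overlap. The summed level was 116 ± 30.0 CPM in POLR2G and 224 ± 51.1 CPM in GFP control livers, a log2 ratio of -0.96. For the closest pair, Acot1 with Acot2, the sum was 27.9 ± 6.50 CPM in POLR2G and 58.9 ± 10.8 CPM in GFP control livers, a log2 ratio of -1.09, also without overlap. Acnat1 and Acnat2 together had 29.0 ± 2.40 CPM in POLR2G and 38.1 ± 10.4 CPM in GFP control livers, a log2 ratio of -0.36, and the groups overlapped.

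Composition within the sums also differed between the groups, but shares depend on how reads were divided among the copies, which is uncertain. Acnat2 made up 12.0%, 14.2%, 12.6% and 16.7% of the Acnat1 and Acnat2 counts in POLR2G libraries, against 28.0%, 27.9%, 42.0% and 23.0% in GFP control libraries. Acot3 made up 3.71%, 6.58%, 3.06% and 5.58% of the Acot1 to Acot4 counts in POLR2G libraries, against 9.71%, 7.69%, 17.4% and 12.4% in GFP control libraries. Neither share overlapped between the groups. The ratio of Acot4 counts to Acot3 counts was 10.7 to 24.0 in POLR2G libraries and 3.36 to 7.88 in GFP control libraries.

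**Figure D4:**
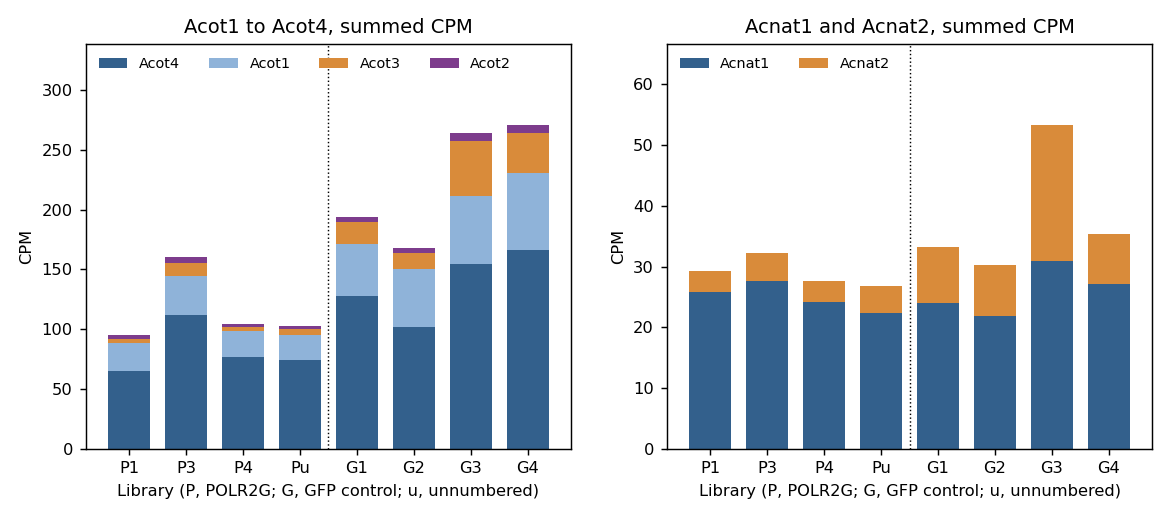
CPM of the type I thioesterases Acot1 to Acot4 (left) and of Acnat1 and Acnat2 (right), stacked by gene in each library, POLR2G libraries left of the dotted line and GFP control libraries right of it. Stacks of Acot1 to Acot4 reach 94.9 to 160 CPM in POLR2G and 168 to 271 CPM in GFP control libraries, and the Acnat stacks overlap.

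POLR2G replicate 3 was the highest POLR2G library for 8 of the 9 tested members, all but Acot13. Without it, 5 members had every POLR2G library below every GFP control library, Acot2 and Acot4 joining Acot1, Acot3 and Acnat2, where 4.52% of all tested genes were so placed. Leaving out any other library gave 3 to 5 such members and 3.84% to 4.91% of tested genes, and Acot1, Acot3 and Acnat2 were among them each time. These splits were added after the data were seen. Major urinary protein genes, abundant and variable in mouse liver, took 12.5% to 18% of counts in POLR2G libraries and 6.89% to 16.1% in GFP control libraries, and their part in the values above was not tested.

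Since Acot1 to Acot4 lie together and were lower together, the 250 bases before their RefSeq starts (GRCm38.p6) are shown with those before the first start of Acnat2. Capitals mark AGGTCA on either strand, the half-site that PPARA and related nuclear receptors bind as a direct repeat.
Acot2 (chr12:83987611-83987860, plus strand): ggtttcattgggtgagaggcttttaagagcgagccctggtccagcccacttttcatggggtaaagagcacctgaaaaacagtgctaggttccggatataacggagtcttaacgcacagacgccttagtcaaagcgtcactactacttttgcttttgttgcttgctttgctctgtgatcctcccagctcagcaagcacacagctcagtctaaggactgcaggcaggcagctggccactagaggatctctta
Acot1 (chr12:84009252-84009501, plus strand): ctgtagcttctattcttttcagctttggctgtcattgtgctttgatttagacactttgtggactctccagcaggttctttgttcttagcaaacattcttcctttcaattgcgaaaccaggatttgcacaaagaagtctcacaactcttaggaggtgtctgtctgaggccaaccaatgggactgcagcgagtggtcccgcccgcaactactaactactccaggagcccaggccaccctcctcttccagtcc
Acot4 (chr12:84038129-84038378, plus strand): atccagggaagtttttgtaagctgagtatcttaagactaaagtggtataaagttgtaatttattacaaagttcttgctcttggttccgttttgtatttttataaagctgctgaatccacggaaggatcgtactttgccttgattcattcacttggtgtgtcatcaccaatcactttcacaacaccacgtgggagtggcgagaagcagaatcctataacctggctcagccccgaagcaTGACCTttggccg
Acot3 (chr12:84051894-84052143, plus strand): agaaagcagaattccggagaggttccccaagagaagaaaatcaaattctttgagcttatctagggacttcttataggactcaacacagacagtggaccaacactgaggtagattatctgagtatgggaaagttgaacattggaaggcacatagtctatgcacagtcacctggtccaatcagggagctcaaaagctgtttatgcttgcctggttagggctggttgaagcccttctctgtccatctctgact
Acnat2 (chr4:49408152-49408401, minus strand): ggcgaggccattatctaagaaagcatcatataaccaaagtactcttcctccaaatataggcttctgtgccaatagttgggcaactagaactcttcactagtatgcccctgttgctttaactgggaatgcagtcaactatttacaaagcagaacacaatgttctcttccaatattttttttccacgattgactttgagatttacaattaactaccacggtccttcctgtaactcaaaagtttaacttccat
The direct repeat of that half-site, AGGTCA followed by any 1 base and AGGTCA again, searched on both strands, was in none of the 10 promoter entries of the 8 members that have one, and in 11 of 32851 promoter windows (0.0335%). At that rate none is likely in 10 entries of any genes, so its absence does not set the members apart. Only exact matches within the 250 bases were sought, and repeats with mismatches or farther away were not. The half-site AGGTCA, searched on both strands and part of that repeat, was found 13 to 8 bases before the start of Acot4 and 110 to 105 bases before that of Acot12, and in 4607 of all windows (14.0%). Of the genes with a half-site, Acot4 had a log2 fold change of -0.75 and Acot12 one of -0.06. Ppara itself had 160 ± 29.8 CPM in POLR2G and 178 ± 17.6 CPM in GFP control livers, a log2 fold change of -0.15 (SE 0.132).

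Genes whose profile over the 8 libraries was nearest to that of Acot1 were sought among 8316 named genes, by the root mean square difference of log2 CPM centred on the GFP control mean. The 5 nearest outside the members were Slc10a2 (0.263), a bile acid transporter, Nt5e (0.266), an ecto-nucleotidase that forms adenosine, Abcd2 (0.269), a peroxisomal fatty acyl-CoA transporter, Plin4 (0.278), a lipid droplet coat protein, and Mfsd2a (0.280), a lysolipid transporter. The median difference over all genes compared was 0.852. Among the members, Acot2 (0.271) lay within the range of these 5, Acot4 (0.306) just beyond it and Acnat2 at 0.505. Acot3 at 0.963 was farther than Baat at 0.816. This measure also takes in the size of the group difference. Acot3 had a log2 fold change of -2.28, in the same direction as Acot1 at -1.12, and Baat one of 0.0012. Slc10a2 had 30.1 ± 2.30 CPM in POLR2G and 61.8 ± 10.2 CPM in GFP control livers and passed the edgeR test with an adjusted p of 0.0306. It lost that call without any 1 POLR2G library and without GFP control replicate 3, with adjusted p-values from 0.0570 to 0.186.

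Other enzymes that form or use acyl-CoA were read from lists chosen by pathway. Of 10 tested further thioesterase genes, 4 were lower and 6 higher in POLR2G, with a median log2 fold change of 0.06 and none past the adjusted threshold in edgeR. Acot11, a fatty acyl-CoA thioesterase first described in brown fat, had 8.12 ± 1.12 CPM in POLR2G and 5.78 ± 1.12 CPM in GFP control livers. Every POLR2G library lay above every GFP control library for Acot11 (log2 fold change 0.49, SE 0.183, edgeR adjusted p = 0.500). Fasn, the fatty acid synthase that carries its own thioesterase domain, had a log2 fold change of -0.49 (SE 0.222). Of the 10, 0 were lower and 1 was higher at an unadjusted p under 0.05.

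The acyl-CoA synthetases, which make the substrates of the thioesterases, had 9 of 14 tested genes lower and 5 higher, with a median log2 fold change of -0.03 and 0 past the adjusted threshold in edgeR (1 lower at an unadjusted p under 0.05). Acss3, a mitochondrial short-chain synthetase, was lower in every POLR2G library (20.1 ± 1.98 CPM in POLR2G and 29.2 ± 4.90 CPM in GFP control livers, log2 fold change -0.53). Acsl4, which prefers arachidonic acid, had a log2 fold change of -0.26 with overlapping groups. Of 9 carnitine and glycine acyltransferase genes, 6 were lower and 3 higher (median -0.06, 1 lower at an unadjusted p under 0.05 and 0 past the adjusted threshold in edgeR). Crat, carnitine acetyltransferase, had 6.23 ± 4.38 CPM in POLR2G and 15.9 ± 5.33 CPM in GFP control livers with overlap, and Cpt1b, the muscle form of the carnitine palmitoyltransferase, a log2 fold change of -0.47 (SE 0.336).

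Peroxisomal beta-oxidation supplies part of the acyl-CoA that the peroxisomal members act on. Its list had 16 of 20 tested genes lower and 4 higher, with a median log2 fold change of -0.13. None passed the adjusted threshold in edgeR, and at an unadjusted p under 0.05 there were 6 lower and 2 higher. Acaa1b, a peroxisomal thiolase, had 550 ± 87.3 CPM in POLR2G and 917 ± 259 CPM in GFP control livers (log2 fold change -0.74, SE 0.208, edgeR adjusted p = 0.360). Abcd2 had 12.0 ± 4.72 CPM in POLR2G and 20.9 ± 5.07 CPM in GFP control livers (log2 fold change -0.81, SE 0.268).

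Coenzyme A synthesis and breakdown had 7 of 15 tested genes lower and 8 higher (median log2 fold change 0.0059, with 2 lower and 1 higher at an unadjusted p under 0.05 and 0 past the adjusted threshold in edgeR). Vnn1, the pantetheinase that releases pantothenate, had 22.5 ± 2.09 CPM in POLR2G and 45.6 ± 14.7 CPM in GFP control livers without overlap (log2 fold change -1.02, SE 0.222, edgeR adjusted p = 0.226). Nudt7, a peroxisomal hydrolase of coenzyme A, stood on the other side with 335 ± 50.5 CPM in POLR2G and 224 ± 56.4 CPM in GFP control livers (log2 fold change 0.58, SE 0.181, edgeR adjusted p = 0.419).

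Bile acid conjugation and taurine supply, the pathway around Baat, had 8 of 13 tested genes lower and 5 higher (median log2 fold change -0.0079, with 2 lower and 1 higher at an unadjusted p under 0.05 and 0 past the adjusted threshold in edgeR). Csad, which makes the taurine precursor hypotaurine, had 143, 179, 130 and 157 CPM in POLR2G libraries, against 256, 399, 168 and 472 CPM in GFP control libraries. POLR2G replicate 3 exceeded GFP control replicate 3, and the other libraries did not cross. The log2 fold change of Csad was -1.09 (SE 0.280, edgeR adjusted p = 0.309). Slc6a6, the taurine transporter, had a log2 fold change of -0.33 (SE 0.101) with every POLR2G library below every GFP control library. Omega-oxidation genes and other known PPARA targets had 11 of 19 tested genes lower and 8 higher (median log2 fold change -0.04), with 6 lower and 4 higher at an unadjusted p under 0.05, and 1 passed the edgeR threshold. In 6 of the 19 every POLR2G library lay below every GFP control library, and in 2 above it. The gene past the threshold was Cd36, the fatty acid uptake receptor, with 22.7 ± 2.44 CPM in POLR2G and 39.6 ± 3.57 CPM in GFP control livers (log2 fold change -0.80, SE 0.101, edgeR adjusted p = 0.0481). Cd36 lost that call in 13 of 19 alternatives, among them the omission of any 1 library other than GFP control replicate 1. The other 5 genes with every POLR2G library below the controls, named after their values were seen, were Cyp4a14, Cyp4a31 and Cyp4a10, fatty acid omega-hydroxylases and close paralogs between which reads may have been divided uncertainly, Fgf21, a fasting hormone, and Pdk4, a kinase that restrains pyruvate dehydrogenase. Cyp4a14 had 9.56 ± 6.79 CPM in POLR2G and 198 ± 110 CPM in GFP control livers (log2 fold change -4.38, edgeR adjusted p = 0.0668). Log2 fold changes were -2.41 for Cyp4a31, -1.53 for Cyp4a10, -1.44 for Fgf21 and -1.25 for Pdk4, none past the adjusted threshold in edgeR. The log2 fold changes of Cyp4a14 and Cyp4a31 lay below that of Acot3, at -2.28. Among transcription factors and coregulators known to act on these genes, 5 of 7 were lower and 2 higher (median -0.08). They were led by the coregulators Ppargc1a, with a log2 fold change of -0.48 (SE 0.134), and Ncor1, with -0.31 (SE 0.115). Neither passed the adjusted threshold.

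**Figure D5:**
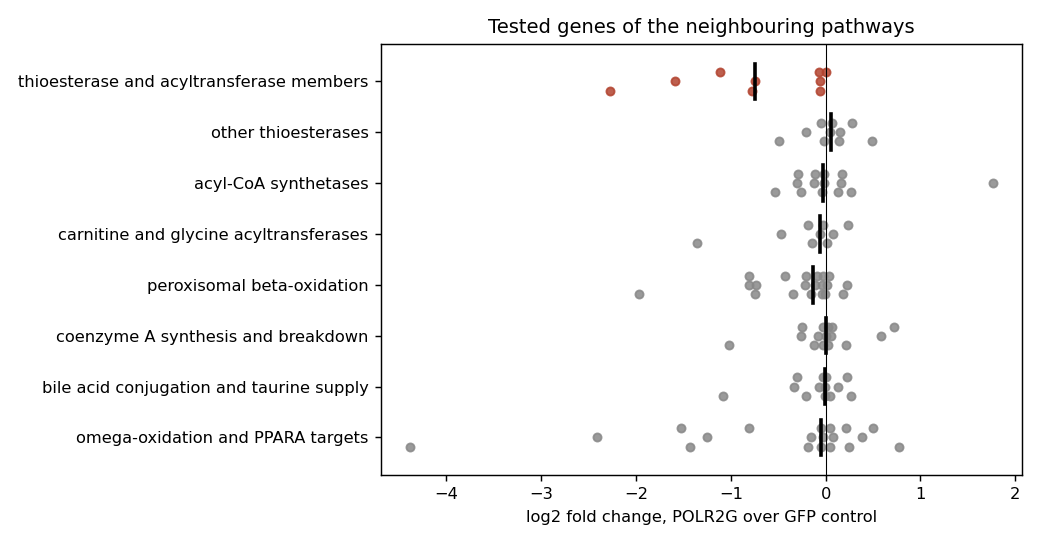
log2 fold change of POLR2G over GFP control livers for each tested gene of the members (red, top) and of 7 neighbouring lists (grey), with the list median as a black bar. The members' median is -0.75 and those of the other lists lie between -0.13 and 0.06, while single genes of other lists, such as Cyp4a14 at -4.38, lie lower than any member.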

How the data were processed

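Per the labels' protocols, libraries were strand-specific and made from poly-A RNA of snap-frozen mouse liver. The authors deposited 1 table of estimated counts as whole numbers, not normalized. The submitters' processing notes name Salmon 1.2.1, GRCm38 and mm10, without the annotation release, the rounding or the way transcripts were summed to genes. Symbols, found for 20817 of 20894 identifiers, and coordinates are from GENCODE M21.

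The labels' library names tied columns to samples. A POLR2G column has a number found in no label and was kept as an unnumbered POLR2G library, and whether it is the sample labelled POLR2G replicate 2 was not settled. No pair of libraries within a group agreed within sampling noise, so none was treated as a duplicate.

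edgeR 4.0.16 (R 4.3.3, TMM, filterByExpr at a count of 10 and a total of 15, quasi-likelihood test, two-sided, Benjamini-Hochberg over 10390 genes, threshold 0.05) was the main test. Log2 CPM for the exact permutation tests (70 arrangements) used a prior count of 2. DESeq2 1.42.0, limma 3.58.1 (voom), other scalings and filters, a replicate block and leaving out each library were the alternatives. Data were simulated on the 10390 genes of the POLR2G against GFP control comparison, each with the same biological coefficient of variation, 0.248. There edgeR recovered 10% of genes changed 1.5-fold, 60% of those changed 2-fold and 100% of those changed 4-fold. Genes that vary more between libraries were not simulated, so these shares may not hold for them. In the real data Acot3, the member changed most, was 4.85-fold lower and was not called. Floors for a count of 0 cover counting error only.

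Genes named by rule are Polr2g, the 10 members and the 5 genes nearest in profile to Acot1. In each other pathway list they are the genes past the threshold (up to 3) or else the 2 with the smallest p. Actb, Rpl3, Cyp4a14, Cyp4a31, Cyp4a10, Fgf21 and Pdk4 fall outside this rule and were named after their values were seen. Ppara, Acot5, Acot6, some cell type markers and the genes sharing most words with Acot3 and Acot4 were named besides. The members and lists were chosen with earlier results of these data known. The coding end of 1 member is not reported here. RefSeq promoter entries were found for 8 members, not for Acot13 and Baat.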

Additional observations from a re-analysis of the deposited data

Results flagged for a closer look

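Acnat2 in GFP control replicate 3, at 22.4 CPM, stood apart from the other 3 GFP control libraries, which had 8.13 to 9.33 CPM. Its gap to the nearest of them was 0.916 of the whole range of the group, above Dixon's 95% critical value for 4 libraries. It was the 1 case among 18 groups of 4 examined (9 members in each treatment), and chance gives about 1 in 20.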

How the results depend on the processing

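Acot1, Acot2, Acot3, Acot4, Acot13 and Acnat2 had negative log2 fold changes in all 19 alternatives, Acot12 and Acnat1 in 18 and Baat in 5. Genes past the adjusted threshold were 4 in edgeR, 1 with library totals only, 2 with Polr2g left out of library sizes, 135 with DESeq2 and 1 to 6 with each library left out. Members past it were 0 in edgeR, 4 with DESeq2 and 0 to 1 with each library left out (Acot1 without POLR2G replicate 3). The summed mitochondrial log2 ratio was -0.22 with library totals only, against -0.14. Replicate numbers did not pair the samples (correlations of same-numbered libraries 0.064, -0.025 and 0.036): the replicate block over 6 libraries gave 2 genes past the threshold, the same 6 without it 1 (added after seeing the data), and 0 members either way. The causes were not tested. The edgeR fit over all 8 libraries had a biological coefficient of variation of 0.248, and Acot2, at 3.25 CPM in POLR2G livers, rests on few counts.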
